A study of Mus musculus with 6 samples.

Results

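Hgf, Fgf10 and Fgf2 encode growth factors that mesenchymal cells secrete, and they are described here with the related ligand Fgf7 and with the receptors of these ligands in cultured mouse prostate cancer stem-like cells. The genes were those of 9 symbols (Hgf, Fgf10, Fgf2, Fgf7, Met, Fgfr1, Fgfr2, Fgfr3 and Fgfr4) that had a row with a single gene symbol in the deposited array table. There were 7 such genes of 9490 in all: the 4 ligands and the receptors Met, Fgfr1 and Fgfr2. Fgfr3 and Fgfr4 were not analysed here. Hgf, Fgf10 and Fgf2 were picked with their difference between the groups known, so the values of all 7 genes are given as a description, with no test.

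Hepatocyte growth factor (HGF) is secreted as an inactive single chain, is cut by serine proteases, and then binds the receptor tyrosine kinase MET. Fibroblast growth factors (FGFs) bind FGF receptors together with heparan sulfate chains. FGF7 and FGF10 are stromal ligands of the splice form of FGFR2 that epithelial cells make, FGF2 binds FGFR1 among others, and FGF10 from mesenchyme is needed for the growth of prostate buds.

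The cells came from TRAMP mice, in which a prostate promoter drives a viral oncogene in epithelium, and they were grown without serum in medium to which EGF and FGF2 protein had been added. TPIN cells (3 arrays) were taken when the mice were 10 to 11 weeks of age and had intraepithelial neoplasia, and TNE cells (3 arrays) came from mice bearing neuroendocrine tumours, whose age the labels do not give. Samples were grouped by title and cell type, although a further text label gives all 6 as intraepithelial neoplasia. All 6 samples carry the transgene, and there was no culture of normal prostate and none without added FGF2.

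Values are log2 expression made with RMA, a method that brings arrays to one distribution, and a difference is TNE minus TPIN with its moderated standard error (SE). Array medians lay between 8.82 and 9.10, and the correlation over all rows was 0.825 to 0.917 within a group and 0.549 to 0.733 between groups. Of the 9490 genes, 20.5% passed limma at an adjusted p of 0.05, 10.2% as lower in TNE and 10.3% as higher. For 43.8% of genes the groups did not overlap, with TNE the lower group for 20.5% and the higher for 23.3%. The labels do not say whether each sample is a mouse of its own, so the spread within a group may be technical. Epithelial identity could be checked only with Krt8 and Krt18, keratins of luminal cells, since 14 of 16 epithelial markers were not analysed here. Krt8 was at 7.92 ± 0.06 (SD, n = 3) in TPIN and 7.59 ± 0.26 in TNE, and Krt18 at 8.27 ± 0.14 and 7.60 ± 0.15. Neither passed the test, though Krt18 did with array weights.

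The stretches just before the transcribed part of the ligand genes are shown because each of these genes was lower on every TNE array than on any TPIN array. The ligands differed in which TNE array was highest, and no link between the stretches and the values was tested. They come from a table of RefSeq promoter windows (build GRCm38.p6), in which 8 of the 9 symbols were matched (all but Fgfr1), and each is cut where the gene begins. Capitals mark a GC box.

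Hgf, chr5:16553245-16553494, plus strand: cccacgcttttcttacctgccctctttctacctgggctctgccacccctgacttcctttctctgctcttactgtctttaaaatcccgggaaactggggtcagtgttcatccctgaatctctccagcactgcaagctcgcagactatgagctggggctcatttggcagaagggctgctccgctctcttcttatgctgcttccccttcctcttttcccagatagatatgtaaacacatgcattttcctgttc

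Fgf10, chr13:118714449-118714698, plus strand: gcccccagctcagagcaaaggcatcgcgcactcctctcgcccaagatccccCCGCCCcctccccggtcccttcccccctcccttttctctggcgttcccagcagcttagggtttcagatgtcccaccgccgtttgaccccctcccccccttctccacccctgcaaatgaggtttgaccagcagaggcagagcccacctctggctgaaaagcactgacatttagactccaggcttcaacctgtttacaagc

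Fgf7, chr2:126034408-126034657, plus strand: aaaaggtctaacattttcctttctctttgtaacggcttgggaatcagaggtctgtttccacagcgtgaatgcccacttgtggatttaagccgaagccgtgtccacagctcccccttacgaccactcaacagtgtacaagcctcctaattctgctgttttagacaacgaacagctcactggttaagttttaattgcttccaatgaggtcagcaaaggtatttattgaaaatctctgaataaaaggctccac

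Fgf2, chr3:37348403-37348476, plus strand: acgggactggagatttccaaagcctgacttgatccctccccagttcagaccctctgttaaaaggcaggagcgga

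The 4 stretches differed in composition. Over the 250 bases before the listed start, G and C made up 50.8% of the window of Hgf (its first of 2 listed starts), 61.2% of that of Fgf10, 62.4% of that of Fgf2 and 43.6% of that of Fgf7. The median over 32851 such windows was 52.4%. For Fgf2 the listed start lies inside the gene, so only 74 of the 250 bases are printed. CG pairs numbered 4 in the Hgf window, 8 in Fgf10, 20 in Fgf2 and 6 in Fgf7. Both strands were searched for 5 motifs. The GC box, a binding site of SP factors, was spelled GGGCGG. The core promoter motif TATAAA was the second. For the FOS and JUN factors the letters were TGANTCA, called the AP-1 site. Factors of the TEAD family were represented by CATTCC, and basic helix-loop-helix factors by the E-box CACGTG. Matches of different motifs did not overlap in the windows of the ligands, Met or Fgfr2. Fgf10 and Fgf2 had 1 GC box each, the latter within the gene, and Hgf and Fgf7 had none; 32.7% of all windows held one. None of the 4 ligand windows matched the other motifs, which occurred in 12.4% (TATAAA), 6.75% (AP-1), 12.6% (TEAD) and 6.02% (E-box) of all windows. The Met window, by comparison, was 74% G and C with 3 GC boxes, 1 AP-1 site and 1 E-box, and the Fgfr2 window was 44% with no match.

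All 4 ligand genes were lower on every TNE array than on any TPIN array. Hgf, the MET ligand, had values of 11.72, 11.02 and 10.68 on TPIN arrays 1 to 3 and of 5.57, 5.40 and 7.65 on TNE arrays 1 to 3. The groups were 3.04 apart at their nearest arrays, and TNE replicate 3 stood above the other TNE arrays. The means were 11.14 ± 0.53 and 6.21 ± 1.25, a difference of -4.94 (SE 0.61) or 30.6-fold. On TNE replicates 1 and 2, only 2.37% and 1.82% of the table's genes had a lower value than Hgf, against 22.9% on TNE replicate 3 and 87.5% to 95.9% on the TPIN arrays. The table has no detection call, so a value this low cannot be called absent.

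Fgf10, the mesenchymal ligand of epithelial FGFR2, was at 11.64, 10.48 and 9.54 in TPIN and at 5.89, 6.29 and 6.59 in TNE. Here the TPIN arrays spread over 2.10 and the TNE arrays over 0.69. The means were 10.55 ± 1.05 and 6.26 ± 0.35, a difference of -4.30 (SE 0.52) or 19.6-fold.

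Fgf2, which is also the factor added to the medium as protein, had RNA values of 12.18, 10.91 and 10.23 in TPIN and of 7.37, 7.80 and 7.38 in TNE. The 3 TNE arrays lay within 0.43 of each other. The means were 11.11 ± 0.99 and 7.52 ± 0.25, a difference of -3.59 (SE 0.49) or 12-fold.

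Fgf7, known as keratinocyte growth factor, was at 12.37, 12.52 and 10.28 in TPIN and at 10.04, 6.94 and 6.42 in TNE. TNE replicate 1 came within 0.25 of the lowest TPIN array, while the other TNE arrays were far below it. The difference was -3.93 (SE 0.99) or 15.2-fold, and -5.05 without TNE replicate 1. TNE replicate 1 was thus high in its group for Fgf7 but not for Hgf or Fgf10, and TNE replicate 3 was high for Hgf but lowest for Fgf7.

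Within TPIN, replicate 3 was the lowest array for all 4 ligands. TPIN replicate 1 was the highest for 3, and Fgf7 was highest on TPIN replicate 2. Over the 4821 genes with a lower mean in TNE, TPIN replicate 3 was the lowest TPIN array for 55.6% and TPIN replicate 1 the highest for 44.2%.

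The receptors had no common direction. Met, the HGF receptor, was at 6.36, 8.24 and 7.55 in TPIN and at 10.47, 9.02 and 6.45 in TNE. The groups overlapped: TNE replicates 1 and 2 were above every TPIN array and TNE replicate 3 was near the lowest TPIN array. The means were 7.38 ± 0.96 and 8.65 ± 2.04, a difference of 1.26 (SE 0.96), which was 0.35 or 2.36 when TNE replicate 1 or TNE replicate 3 was left out and 0.75 when TPIN replicate 1 was.

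Fgfr1, a receptor that binds FGF2, was at 12.21, 11.95 and 11.56 in TPIN and at 11.15, 8.52 and 8.42 in TNE. As for Fgf7, TNE replicate 1 lay close to the TPIN arrays, 0.41 below the lowest of them. The difference was -2.54 (SE 0.70) or 5.83-fold, and -3.44 without TNE replicate 1. Fgfr2, the receptor whose epithelial splice form binds FGF7 and FGF10, was at 7.45, 7.45 and 7.62 in TPIN and at 7.30, 7.04 and 6.803 in TNE. All TNE arrays were below all TPIN arrays, by 0.15 at the nearest, and the difference was small at -0.46 (SE 0.26). Which splice forms its row covers is not given, so the epithelial and mesenchymal forms cannot be told apart.

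**Figure D1:**
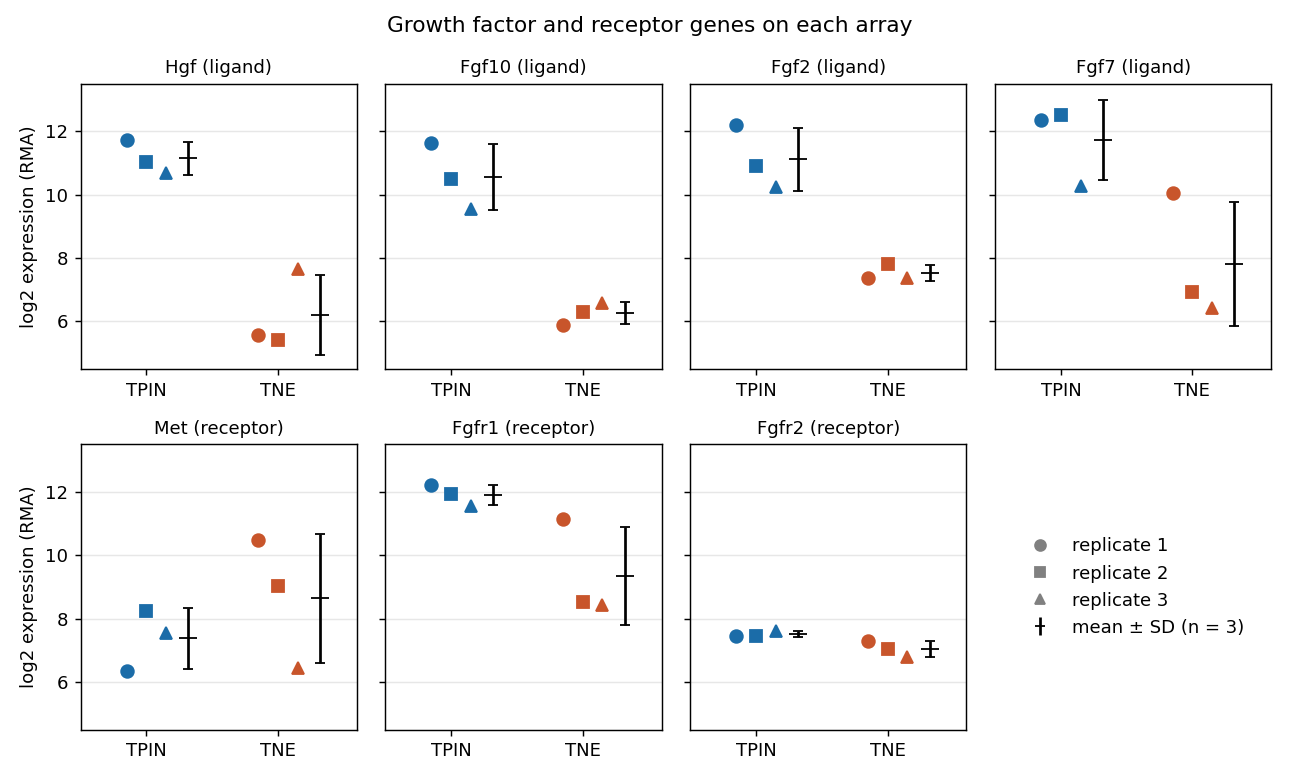
Log2 expression of the 4 ligand genes (top) and 3 receptor genes (bottom) on the 3 TPIN (blue) and 3 TNE (orange) arrays; marker shapes give the replicate and black bars the mean ± SD. The Hgf, Fgf10 and Fgf2 values of TNE lie at least 2.43 below those of TPIN, whereas the Met values overlap and TNE replicate 1 (circle) is near TPIN for Fgf7 and Fgfr1.

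Set side by side, ligands differed more between the groups than receptors, a contrast that was not tested. Hgf, Fgf10 and Fgf2 were picked with their difference known, so the contrast describes these genes and nothing more is read from it. The mean difference was -4.19 over the 4 ligands, which ran from -4.94 to -3.59, and -0.58 over the 3 receptors, which ran from -2.54 to 1.26. The receptor mean was -1.22 without TNE replicate 1 and -0.02 without TNE replicate 3. On the TPIN arrays 64.8% to 99% of all genes had a lower value than a ligand, and 95.9% to 98.1% than Fgfr1. For Met the share was 5.21% to 30.2% and for Fgfr2 16.4% to 20.2%. Met and Fgfr2 thus had little room to be lower in TNE, which limits the contrast. After each gene was centred on its own mean over the 6 arrays, the ligands averaged 2.94, 2.19 and 1.15 in TPIN and -1.82, -2.43 and -2.03 in TNE. The receptor averages were 0.03, 0.57 and 0.27 in TPIN and 0.996, -0.45 and -1.42 in TNE, so only the ligand averages kept the groups apart. The groups did not overlap for 4 of 4 ligands and 2 of 3 receptors, all lower in TNE, beside 20.5% of all genes in that direction (43.8% in either); the ligands were picked on this comparison and nothing is read from the count.

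The mean of the fibroblast markers was lower in TNE, as the ligands were. Within TPIN this mean was nearly flat, while single markers ran in different directions. The mean of 15 measured markers of fibroblasts and smooth muscle (of 17) was 7.85 to 8.48 on the TNE arrays. It was 11.21, 11.28 and 11.29 on TPIN arrays 1 to 3, where the centred ligand average was 2.94, 2.19 and 1.15. On the same arrays Thy1 went down, as the ligand average did, at 12.95, 11.27 and 10.17. Col1a2 went up, at 12.16, 12.65 and 13.75. Both were named after their values were seen. All 15 differences were negative and 11 of the 15 fell, 73.3% called against 20.5% of all genes. The marker lists were chosen with earlier results of these data known. The brightest were Dcn (decorin) at 13.72 ± 0.06 in TPIN and 10.91 ± 0.24 in TNE, Col3a1 (a fibrillar collagen) at 12.51 ± 0.94 and 9.73 ± 0.47, and Pdgfra (a PDGF receptor) at 12.61 ± 0.56 and 9.24 ± 1.82. For Pdgfra, dropping any TPIN array ended the call (limma adjusted p up to 0.0795). In such bulk cultures, fewer cells of a type and less RNA per cell cannot be told apart, and the part of these markers in the ligand values was not tested. Within TNE the marker mean was 7.88 on replicate 1, where Fgf7 and Fgfr1 were highest, 7.85 on replicate 2, where Fgf2 was highest, and 8.48 on replicate 3, where Hgf and Fgf10 were highest and Fgf7 and Fgfr1 lowest.

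Other marker lists differed as well, beside 10.3% of all genes that rose and 10.2% that fell. Of 6 measured neuroendocrine markers 4 rose and none fell (1 fell at an unadjusted limma p under 0.05), and their mean was 7.99 to 8.54 on the TPIN arrays and 9.30, 9.83 and 10.89 on TNE arrays 1 to 3. The count was 2 without TPIN replicate 1 or 3 and 1 without TPIN replicate 2. Uchl1, which acts on ubiquitin in neurons, was 6.35-fold higher in TNE, while Ncam1, a neural adhesion molecule, was at 10.64 ± 0.95 in TPIN and 10.68 ± 0.81 in TNE and Eno2, neuronal enolase, at 10.02 ± 0.27 and 9.23 ± 0.43. Of 6 endothelial markers 3 fell, among them Cd34 (11.40 ± 0.95 in TPIN, 8.46 ± 1.32 in TNE), Eng, a TGF-beta co-receptor, which was 11.9-fold lower, and Flt1, a VEGF receptor, which was 2.93-fold lower; 1 rose, Cdh5, a junction cadherin named after its values were seen. If TPIN replicate 2 or 3 was left out, or TNE replicate 2, 1 fell. Cd34 did not pass without any 1 of those arrays or TNE replicate 3 (limma adjusted p up to 0.0868), and Flt1 passed without TNE replicate 3 alone of the 6 (up to 0.133) and under neither other scaling. The endothelial mean was 8.46 to 8.86 in TPIN and 6.89 to 7.97 in TNE. The 2 measured leukocyte markers, Cd68 and Lyz2 of macrophages, did not pass, but their mean was 9.38 on TNE replicate 3, the TNE array with the highest Hgf, against 6.76 to 7.47 on the other 5 arrays. Of the TNE arrays, replicate 3 also had the highest endothelial mean (7.97, against 7.51 and 6.89), neuroendocrine mean and fibroblast mean (8.48). The part of these lists in the Hgf value was not tested.

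**Figure D2:**
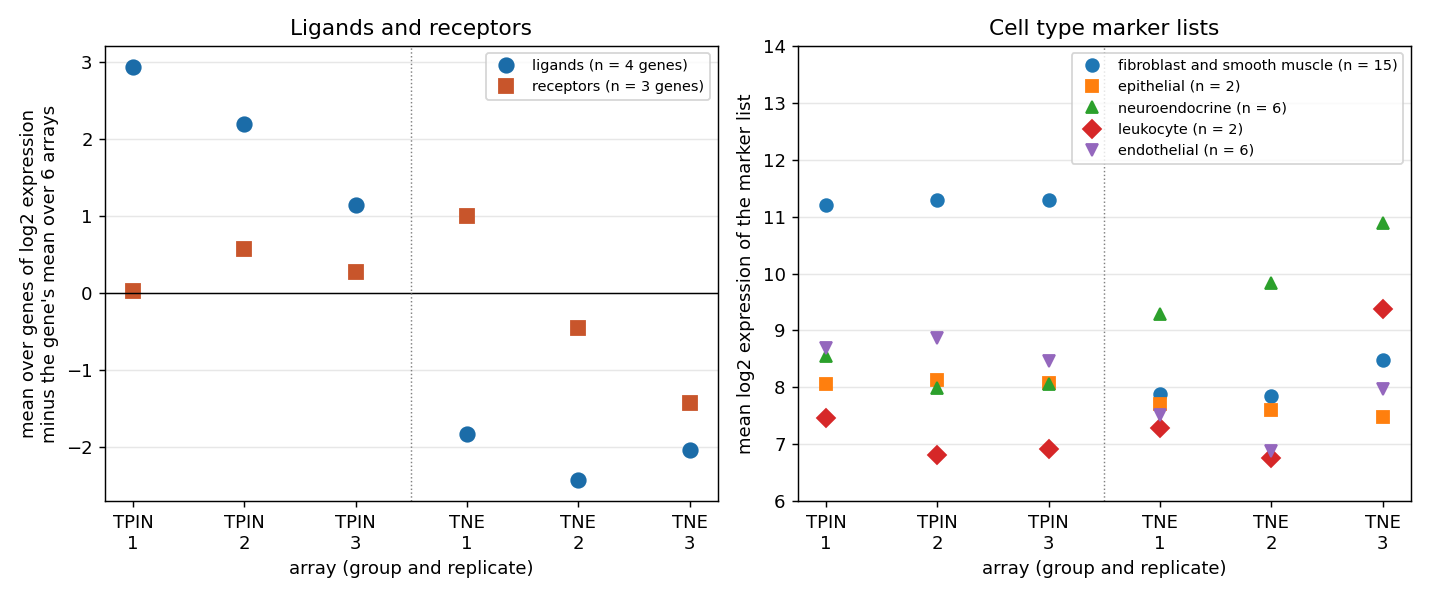
Left, the mean over the 4 ligands (circles) and 3 receptors (squares) of log2 expression minus each gene's own mean over 6 arrays; right, the mean log2 expression of 5 cell type marker lists, both by array. Ligand means are above 0 on the 3 TPIN arrays and below 0 on the 3 TNE arrays, and the fibroblast marker mean is 11.21 to 11.29 in TPIN and 7.85 to 8.48 in TNE.

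The genes around these ligands and receptors were taken from lists of the pathway, which share no gene with the 7 above. Of 125 measured genes (203 entries), 40 fell in TNE, 3 rose and 82 did not pass, and 107 differences were negative. That is 34.4% called, where 20.5% of all genes were called, and the median difference was -0.84, where that of all genes was -0.02. The lists were chosen with earlier results of these data known, so nothing is read from this excess or from the shares of the lists below. Of the 40 genes that fell, 17 were in the list of other growth factors. With TPIN replicate 1 left out 25 fell and 1 rose; with TPIN replicate 2 left out 26 fell and 0 rose; with TNE replicate 2 left out 21 fell and 1 rose. With TNE replicate 1 left out, too, 1 rose. The counts below come from the same fit, limma with Benjamini-Hochberg adjustment over all genes, and the fibroblast marker mean beside them was 11.26 for TPIN and 8.07 for TNE; its part was not tested. Where a list below has no gene that rose, an unadjusted limma p under 0.05 gave 0 as well, and array weights gave 1, in heparan sulfate synthesis; they gave 2 in place of 1 for the co-receptors and for the signal relay.

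Of the other FGF ligands 3 of 19 were measured, and 1 fell, 33.3% called against 20.5% of all genes. With dim rows left out 0 fell. Fgf1, a ligand of all FGF receptors, was at 8.86, 7.92 and 8.81 in TPIN and at 7.24, 7.06 and 7.39 in TNE, 2.47-fold lower (limma adjusted p = 0.0315), and lost its call without any 1 array other than TPIN replicate 2 (adjusted p up to 0.115). Fgf13, which acts inside the cell on sodium channels, and Fgf21, an endocrine FGF, did not pass, with differences of -0.46 and -0.27.

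Among 6 measured genes for the processing of HGF and its relative MSP or for the MSP receptor, 2 fell and 1 rose. That was 50% called against 20.5% of all genes. Mst1r, the MSP receptor and closest relative of Met, was at 9.11, 8.78 and 8.42 in TPIN and at 6.98, 6.93 and 7.002 in TNE, 3.48-fold lower (limma adjusted p = 0.00556). The TNE arrays were alike and all below TPIN, which differs from the overlapping values of Met. Such low TNE values limit this contrast, since RMA narrows differences near background. With dim rows left out 1 gene of the list fell. Plat, tissue plasminogen activator, was 4.83-fold lower, and Plau, urokinase, did not pass at 10.94 ± 1.26 and 8.27 ± 1.89 (limma adjusted p = 0.0835). Spint2, a membrane inhibitor of the HGF-activating proteases, was at 7.31, 7.28 and 8.07 in TPIN and at 9.17, 8.71 and 8.81 in TNE, 2.54-fold higher (limma adjusted p = 0.0253). Plat and Spint2 each lost the call without any 1 of 5 arrays, the exceptions being TNE replicate 1 for Plat and TPIN replicate 3 for Spint2 (adjusted p up to 0.139 and 0.091). Plau passed only without TNE replicate 1. The related inhibitor Spint1, named after its values were seen, was at 7.66 ± 0.24 and 7.61 ± 0.28.

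Of 17 measured co-receptors and binding proteins 5 fell, 1 rose and 11 did not pass, 35.3% called against 20.5% of all genes. Gpc4, a glypican that carries heparan sulfate at the cell surface, was at 11.50, 11.60 and 11.26 in TPIN and at 5.998, 9.07 and 6.65 in TNE, 18.5-fold lower (limma adjusted p = 0.00748). Flrt2, a membrane protein whose family binds FGF receptors, and Hspg2, perlecan, a heparan sulfate proteoglycan that holds FGF2, were 5.48-fold and 5.29-fold lower. Plxnb1, a semaphorin receptor that associates with MET, was 2.95-fold higher in TNE, a call lost without TPIN replicate 2 (limma adjusted p = 0.0583). The decoy receptor Fgfrl1 (9.58 ± 0.23 in TPIN, 8.88 ± 0.49 in TNE), picked with its values known, did not pass. With TPIN replicate 1 left out 3 fell, as with TNE replicate 2 or 3 left out, and with TPIN replicate 3 left out 2 rose; with TPIN replicate 2 left out 0 rose.

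Of 18 measured enzymes that build or trim heparan sulfate 3 fell, none rose and 15 did not pass, 16.7% called against 20.5% of all genes. With array weights 6 fell. Sulf1, which removes sulfate groups from heparan sulfate, was at 11.25, 10.12 and 8.93 in TPIN and at 6.71, 6.81 and 7.55 in TNE, 8.43-fold lower (limma adjusted p = 0.0102). The chain-building enzymes Extl3 and Ext1 were 3.65-fold and 3.00-fold lower. Ndst2, a sulfotransferase, had 9.83 ± 0.38 and 8.50 ± 0.74 (limma adjusted p = 0.0578) and passed without TNE replicate 1, under either other scaling, with dim rows left out and with array weights. The count was 5 without TNE replicate 1 and 1 without TNE replicate 2. Extl3 lost its call without TNE replicate 2, and Ext1 without any 1 array other than TNE replicate 1 (limma adjusted p up to 0.0648 and 0.0947).

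Among 20 measured adaptors and kinases downstream of the receptors 4 fell and 1 rose. That was 25% called, near the 20.5% of all genes, and the median difference was -0.19. Cblb, a ubiquitin ligase that restrains receptor kinases, was 4.53-fold lower and Rasa1, which turns RAS off, 3.28-fold lower. Stat3, a transcription factor downstream of MET, was 2.22-fold lower and Pik3cb, a catalytic subunit of PI 3-kinase, 2.79-fold higher, calls that each ended without any 1 of 5 arrays (limma adjusted p up to 0.126 and 0.101; the exceptions were TNE replicate 1 for Stat3 and TNE replicate 3 for Pik3cb). With arrays quantile-normalized again, Stat3 also lost its call. With TPIN replicate 1 or 2 left out, or TNE replicate 2 or 3, 2 fell; with TPIN replicate 1 or 2 left out, or TNE replicate 1 or 2, 0 rose. The core kinases Map2k1 and Map2k2, named after their values were seen, had differences of -0.01 and 0.04.

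Of 27 measured feedback inhibitors and targets of ERK, the kinase these receptors activate, 8 fell and none rose. That was 29.6% called against 20.5% of all genes, and all 27 differences were negative with a median of -1.20. With array weights 18 fell. Egr2, an immediate early transcription factor, was at 11.75, 10.87 and 10.95 in TPIN and at 7.37, 6.91 and 6.83 in TNE, 17.8-fold lower (limma adjusted p = 0.000615). Fos, another immediate early factor, was 5.97-fold lower, Errfi1, a feedback inhibitor of EGF receptors, 4.32-fold, and Dusp1, a phosphatase of MAP kinases, 2.82-fold. Dusp1 lost its call without TPIN replicate 1 or TNE replicate 2 (adjusted p up to 0.0647). Among genes often used to read FGF signalling, picked with their values known, Spry1 fell, and Dusp6, Etv5 and Spry4 did not pass. Spred1, Dusp5 and Egr1 of the same list, also named after their values were seen, fell. Their differences were -1.28, -1.05 and -2.575 (limma adjusted p = 0.0153, 0.0414 and 0.016). Each lost its call in some fits that left out 1 array (limma adjusted p up to 0.0757, 0.131 and 0.0623). Spry1, a feedback inhibitor, was at 10.57 ± 0.77 in TPIN and 8.68 ± 0.92 in TNE, with overlapping groups (limma adjusted p = 0.0469), and lost its call without TPIN replicate 2 or 3 or TNE replicate 2 or 3 (adjusted p up to 0.148). Dusp6 was at 11.37 ± 0.45 in TPIN and 10.74 ± 0.69 in TNE, Etv5 at 9.56 ± 0.54 and 9.17 ± 0.96, and Spry4 at 10.40 ± 0.43 and 9.25 ± 0.96. Spry4 passed without TNE replicate 1 (limma adjusted p = 0.025) and with array weights. The count of genes that fell was 5 without TPIN replicate 1 or 2 and 3 without TNE replicate 2.

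**Figure D3:**
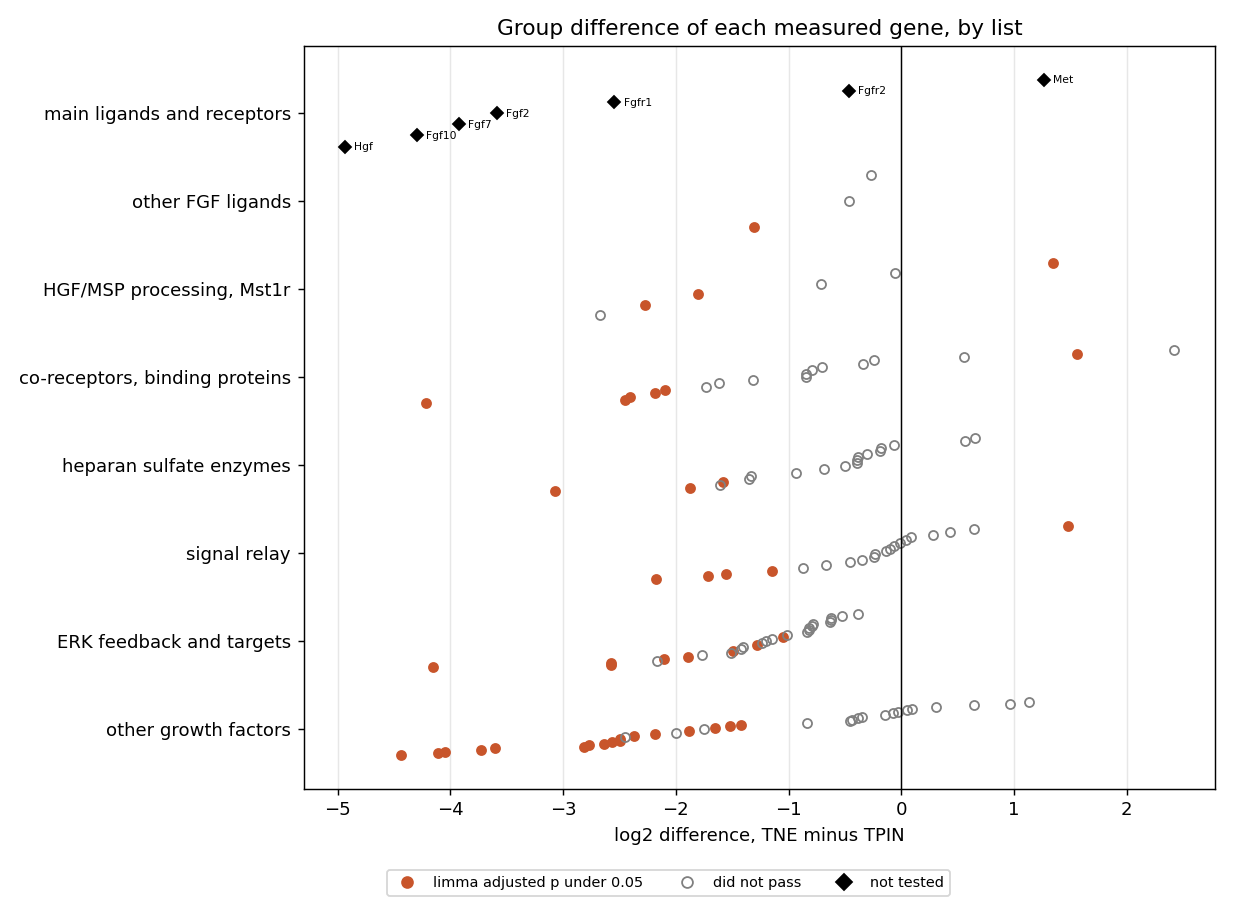
Log2 difference, TNE minus TPIN, of each measured gene by list; filled circles passed limma at an adjusted p of 0.05, open circles did not, and diamonds are the 7 ligand and receptor genes, which were not tested. The 4 ligands lie between -4.94 and -3.59, and among the other growth factors 17 filled circles lie below 0 and none above.

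Other growth factor genes were lower in TNE as well. Of 34 measured genes for further secreted growth factors of mesenchyme, 17 fell in TNE, none rose and 17 did not pass. The share called was 50%, against 20.5% of all genes, and the median difference was -1.70. Vegfd, a factor of lymphatic growth, was at 11.46, 10.94 and 11.19 in TPIN and at 7.28, 6.74 and 7.24 in TNE, 17.3-fold lower (limma adjusted p = 0.000378). Nrg1, neuregulin, the ligand of ERBB receptors, was at 10.01, 11.23 and 9.88 in TPIN and at 6.28, 6.40 and 6.30 in TNE, 16.5-fold lower (limma adjusted p = 0.00113). Both genes were tight within TNE, with no array near TPIN. Ogn, the small proteoglycan osteoglycin, and Pdgfd, a PDGF ligand, were 13.2-fold and 6.82-fold lower. Named after their values were seen, Igf1, Cxcl12 and Csf1, stromal factors for epithelial growth, chemotaxis and macrophages, fell in TNE, with differences of -2.497, -2.37 and -3.602, and Il6, an inflammatory cytokine, was at 11.17, 8.44 and 7.58 in TPIN and at 4.76, 4.55 and 4.55 in TNE. The count was 11 without TPIN replicate 2 or TNE replicate 2.

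Not every secreted factor passed the test. Kitl, stem cell factor, was at 9.35 ± 0.49 in TPIN and 9.41 ± 0.29 in TNE, Bmp4 at 6.79 ± 0.04 and 6.88 ± 0.33, and Hbegf, an EGF receptor ligand, at 8.84 ± 0.27 and 8.70 ± 0.71, all 3 named after their values were seen. The heparin-binding factor Ptn, likewise, had 9.63 ± 2.03 and 10.76 ± 0.83. None of these 4 passed.

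**Figure D4:**
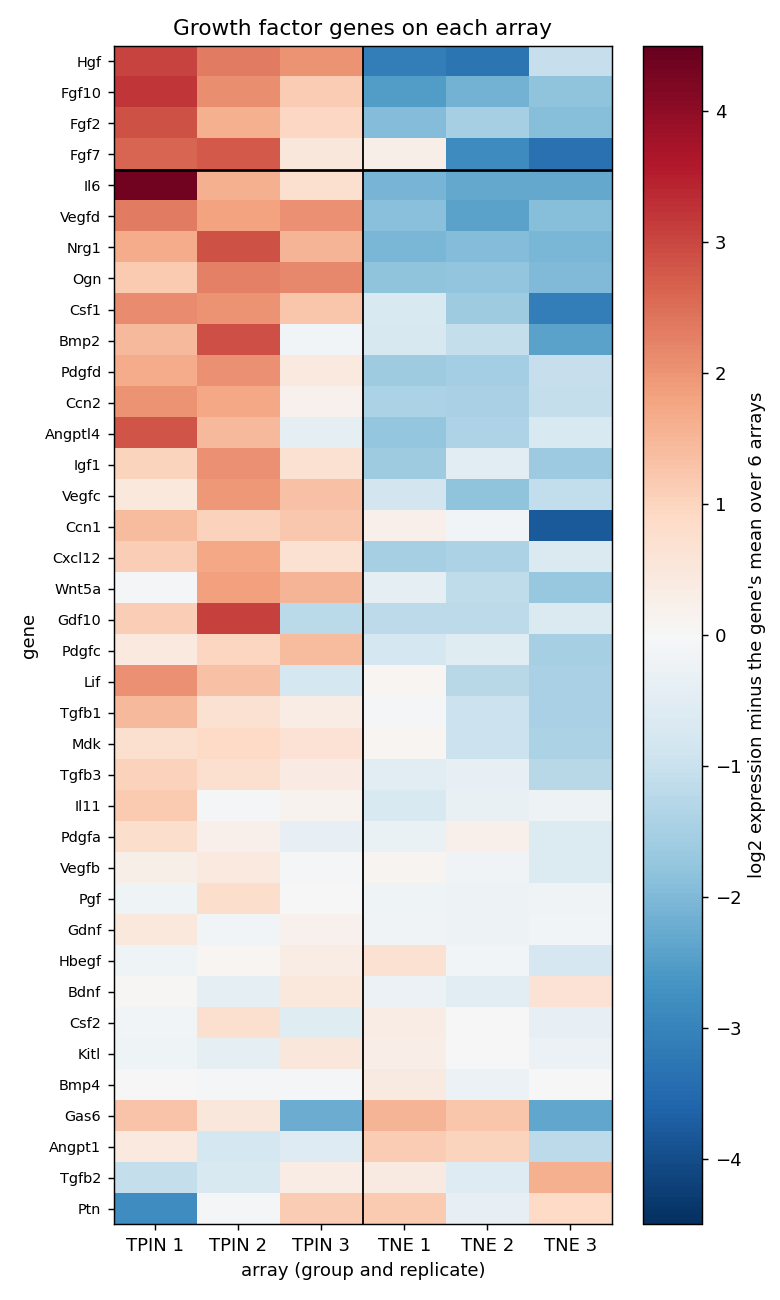
Log2 expression minus the gene's mean over 6 arrays for the 4 ligands (above the line) and 34 other secreted growth factor genes, by array (red higher, blue lower), the latter ordered by their difference. Hgf, Fgf10 and Fgf2 are red on the 3 TPIN arrays and blue on the 3 TNE arrays, as are Vegfd, Nrg1 and Ogn, whereas Kitl and Bmp4 stay pale.

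The genes whose pattern over the 6 arrays was most like Hgf, Fgf10 and Fgf2 were found by the root mean square distance between profiles, each centred on its own mean. For Hgf these were Dab2, an endocytic adaptor, at a distance of 0.30 log2 units, Islr, a secreted protein of stromal cells, at 0.40, and Nid1, a basement membrane glycoprotein, at 0.43. Each was higher on TNE replicate 3 than on the other TNE arrays, as Hgf was: Dab2 was at 5.94, 6.05 and 7.88 on TNE arrays 1 to 3. For Fgf10 they were Fibin, a secreted protein, at 0.22, Mmp19, a matrix metalloproteinase, at 0.31, and Gulp1, an engulfment adaptor, at 0.36. For Fgf2 they were Mitf, a transcription factor, at 0.33, and Ptges, a prostaglandin E synthase, and Cd59a, an inhibitor of complement, both at 0.38. Among the main genes themselves, Fgf10 and Fgf2 were 0.43 apart, Hgf and Fgf10 0.73, Hgf and Fgf2 1.09, and Hgf and its receptor Met 3.70. These distances were chosen on the same arrays and describe them.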

How the data were processed

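Biotin-labelled cDNA was hybridised to 6 single-colour arrays, 3 TPIN and 3 TNE, per the labels. The values are on a log2 scale and were deposited after RMA by the authors, as the submitters' processing notes state; the version of RMA is not given. RMA narrows differences near background. The 10361 rows run from 2.87 to 14.11 and cover part of the array; how they were selected is not given. There is no detection call, and 6 arrays limit the precision. The platform annotation paired 9496 rows with 1 symbol, 374 with several and 491 with no symbol; 9486 matched RefSeq by Entrez identifier, with 0 symbols changed. For 6 genes with several rows the one of highest mean was kept, leaving 9490 genes.

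Groups came from the titles; replicates were numbered in series order and pair nothing. No 2 arrays held duplicate data: at most 0.106% of rows were identical. Limma 3.58.1 (R 4.3.3) was fitted over all genes, TNE minus TPIN, two-sided, with Benjamini-Hochberg adjustment and a threshold of 0.05; it was tested on simulated data. The members and gene lists were chosen with earlier results of these data known. The 7 main genes were given no p. Genes were named by rule: those 7, the 4 smallest p of each pathway list, the 3 brightest of each marker list, and the 3 most like Hgf, Fgf10 and Fgf2, leaving out predicted gene models; others are marked as named after their values were seen. Alternatives were 2 other scalings, a filter on dim rows, a mean-variance trend, array weights, the mean of a gene's rows, and leaving out each array.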

Additional observations from a re-analysis of the deposited data

How the results depend on the processing

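The differences of the 7 main genes moved by less than the spread between replicates under every alternative that gave a value, and none changed sign. Leaving out each array in turn, the ranges were -5.66 to -4.53 for Hgf, -4.80 to -3.75 for Fgf10, -4.03 to -3.05 for Fgf2, -5.05 to -3.24 for Fgf7, 0.35 to 2.36 for Met, -3.44 to -2.07 for Fgfr1 and -0.59 to -0.34 for Fgfr2. Genes with a mean under 8.09, among them Met and Fgfr2, gave no value when dim rows were left out. Over all genes, 976 were higher and 965 lower in TNE; array weights gave 2246 and 2021, and leaving out 1 array gave 357 to 1311 and 475 to 1285. Over the pathway lists, 3 rose and 40 fell; array weights gave 6 that rose, and leaving out 1 array gave 0 to 4 and 21 to 47. With a quantile normalization repeated, the median difference of all genes moved from -0.02 to 0.07. No paired analysis was possible because the labels give no replicate numbers. Values near background, such as Hgf in TNE, limit how far a fold can be read.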
